A study of Mus musculus with 42 samples.

Results

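The 42 genes described here encode proteins of the cytosolic ribosome, and their transcript levels were followed on 42 Affymetrix arrays of preimplantation mouse embryos. A gene was taken as a member when its symbol named a protein of the small (Rps) or large (Rpl) subunit, including Rpsa and the stalk proteins Rplp0 and Rplp2, and when at least 1 probe set carried that symbol alone. The kinases whose names begin with Rps6k and the copy Rpl39l were left out. This gave 20 small subunit and 22 large subunit genes among 18193 genes with a probe set of their own, and 41 of the 42 passed the filter on dim genes. Rps16, a small subunit protein, did not pass, with intensities of 1 to 36.2 on all arrays. Each gene is read from 1 probe set, its brightest over all arrays, and levels of different genes are not set against each other because probe sets differ in their response.

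All embryos were of the strain B6D2F1. Fertilized 1-cell embryos received a morpholino (MO), an antisense oligomer that blocks translation or splicing of its target, and were collected 20 h or 44 h later. The MO were directed at Oct4 (encoded by Pou5f1), at Sall4 or at Nanog, transcription factors of the pluripotency network, and the control MO matches no mouse sequence. The 20 h arrays hold MO-injected and uninjected embryos for Oct4, the same for Sall4, and MO-injected, control MO-injected and uninjected embryos for Nanog. At 44 h, Oct4 MO and Sall4 MO embryos shared 1 uninjected and 1 control MO group, and the Nanog experiment again had its own. Each of the 14 groups had 3 arrays that the labels number as biological replicates. Numbers of embryos per array are not given in the sources used here, so a p-value measures the spread from array to array. In bulk RNA of whole embryos, fewer cells and less RNA per cell cannot be told apart.

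Ribosomal proteins are made in near-equal amounts to be built into subunits together with ribosomal RNA in the nucleolus. In mammals their mRNAs share a start site with a run of pyrimidines, the 5′ terminal oligopyrimidine or TOP motif, through which the mTOR pathway and the RNA-binding protein Larp1 control their translation. The mouse embryo begins with ribosomes made in the oocyte, and new ribosome synthesis starts after the embryonic genome is switched on at the 2-cell stage. Copies that carry the sequence of a ribosomal protein mRNA are common in the genome, so that many probe sets on the array match several loci.

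Start-site windows of the genes on which the comparisons below turn are shown because the run of pyrimidines in such a window differs between members. RefSeq promoter sequences (build GRCm38.p6) matched 37 of the 42 genes with 43 windows. Each line gives the 15 bases before and the 15 bases from the start site, and capitals mark the longest run of C or T.

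Rpl7a: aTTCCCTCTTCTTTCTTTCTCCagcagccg
Rpl14: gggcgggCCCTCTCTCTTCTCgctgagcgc
Rpl12: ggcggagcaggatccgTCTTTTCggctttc
Rpl27a: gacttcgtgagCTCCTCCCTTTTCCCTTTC
Rps6: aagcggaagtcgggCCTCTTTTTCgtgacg
Rpl37a: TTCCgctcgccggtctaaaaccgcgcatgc
Rpl41: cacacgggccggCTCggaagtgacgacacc
Rpl35: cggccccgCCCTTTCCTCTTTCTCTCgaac

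The windows of Rpl7a, Rpl14, Rpl27a, Rps6 and Rpl35 have runs of 10 to 21 pyrimidines, that of Rpl12 a run of 7, and those of Rpl37a and Rpl41 runs of 4 and 3. They lie at chr2:26910792-26910821 (plus strand), chr9:120571502-120571531 (plus strand), chr2:32961697-32961726 (plus strand), chr7:109519180-109519209 (plus strand), chr4:86857353-86857382 (minus strand), chr1:72711245-72711274 (plus strand), chr10:128549154-128549183 (minus strand) and chr2:39005117-39005146 (minus strand), in the order of the lines. A run of at least 7, at any place in the window, was found in 21 of the 43 member windows (48.8%). The share of 32851 RefSeq windows of the same length was 18.6%. In the 300 bases from 250 before to 50 after the start, read on both strands, CCGGAAG, a core bound by ETS factors, was found in 41.9% of member windows and in 8.86% of all. AANATGGC, which YY1 binds, was found in 6 of the 43 member windows and in 6.05% of all, TATAAA in 11.6% and 13.6%, and CACGTG, the E-box of Myc, in 11.6% and 7.15%. The end of CCGGAAG can overlap the start of AANATGGC. A match is a string of letters and not a measured site.

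Of the 41 tested members, 34 were in the brightest 10% of the 15478 genes tested. The mean of log2(intensity + 16) over the 41 genes gives the level of the family on an array. On the 24 arrays of the Oct4 and Sall4 experiments it was 10.02 to 10.81 at 20 h and 11.38 to 11.88 at 44 h. The 18 arrays of the Nanog experiment lay on a higher scale, with array medians of 193 to 227 against 26.1 to 33.3 on the other arrays, and gave 11.84 to 12.29 at 20 h and 12.45 to 12.82 at 44 h. In each experiment the arrays of 44 h were therefore above those of 20 h without overlap. The family's deviations within groups ran together: the correlation of a member's deviation from its group mean with that of the other members had a median of 0.63, and it was above 0.5 for 30 of 41 genes. It was highest for Rpl37a (0.85) and lowest for Rpl14 (-0.10). These correlations are taken over 42 arrays that share amplification and scaling, and are a description. They were not computed for genes outside the family, so they cannot be read as a trait of the family.

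**Figure D1:**
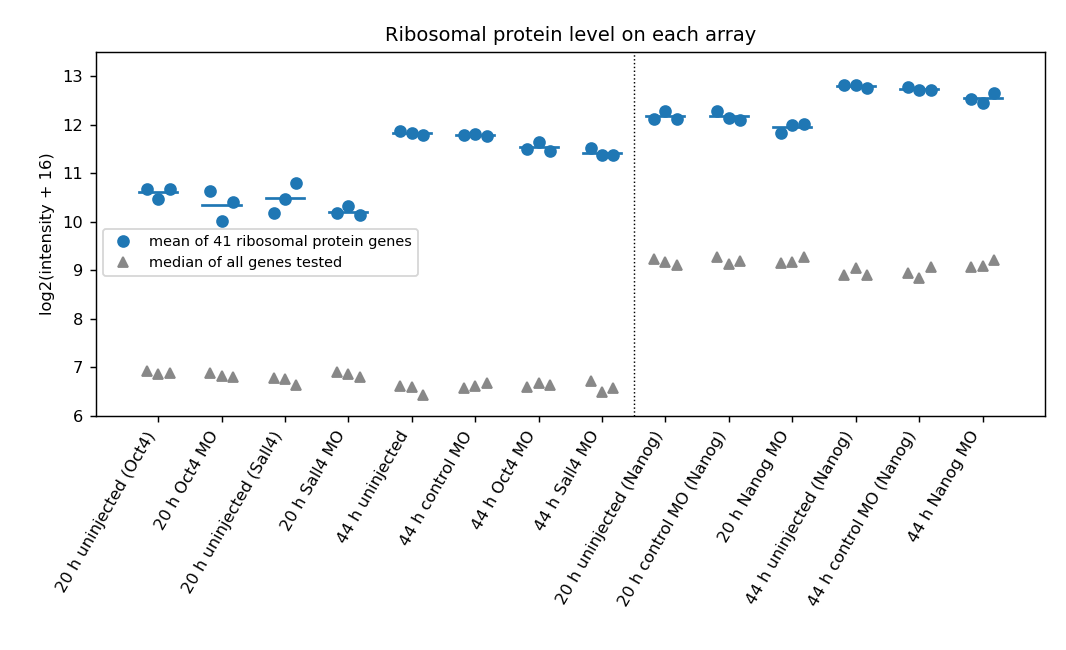
Mean log2(intensity + 16) of 41 ribosomal protein genes (circles, bar at the group mean) and the median of all 15478 genes tested (triangles) on each of the 42 arrays, with 3 arrays per group and a dotted line between the Oct4 and Sall4 arrays (left) and the Nanog arrays (right). The ribosomal protein level rises from 20 h to 44 h in every treatment, and each group with an Oct4, Sall4 or Nanog MO has a lower mean than the group it is compared with.

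Ribosomal protein transcripts rose from 20 h to 44 h in uninjected embryos. A gene is said to rise or fall, or to be called, at an adjusted p under 0.05 in limma with Benjamini-Hochberg adjustment over all 15478 genes. On the Oct4 and Sall4 arrays, 36 of 41 members rose (87.8%, against 20.4% of all genes tested that rose) and 0 fell (25% of all genes fell). The median difference was 1.24 on the log2 scale, a factor of 2.36, while the median of all genes was -0.06 and that of the brightest 10% was -0.09. Of the 19 small subunit genes tested 17 rose, and the median over all 19 was 1.24. Of the 22 large subunit genes 19 rose, and the median over all 22 was 1.20. The 20 h arrays here come from embryos of the Oct4 and the Sall4 experiment and the 44 h arrays from those of the joint one, so time and experiment cannot be told apart on these arrays. On the Nanog arrays both times belong to 1 labelled experiment. There 17 of 41 members rose (9.28% of all genes rose) and 0 fell (16.3% of all genes), with a median of 0.46 against 0.02 for all genes, and for 35 of 41 every 44 h array was above every 20 h array (18.1% of all genes).

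Among large subunit genes the steepest changes were those of Rpl14, Rpl8, Rpl7 and Rpl7a. Rpl8, a protein next to the peptidyl transferase centre, read 757, 558 and 751 in uninjected 20 h embryos of the Oct4 experiment and 485, 462 and 814 in those of the Sall4 experiment. It read 4669.5, 4440.1 and 4511 at 44 h (log2 difference 2.84, SE 0.15, adjusted p = 1.86e-15). No 20 h array came near the 44 h arrays. Rpl7, an RNA-binding protein of the large subunit, read 1078, 549 and 1006 and 275, 804 and 589 at 20 h, against 4419.5, 4401 and 4227 at 44 h (log2 difference 2.70, SE 0.22, adjusted p = 1.53e-11). Rpl7a rose from 938 ± 221 and 708 ± 285 to 4912 ± 296 (log2 difference 2.61, SE 0.22, adjusted p = 1.70e-11). Rpl14 was close to the floor at 20 h, with 22.1, 124 and 55.3 and 6.89, 84.0 and 9.2, and read 1035, 779 and 1154 at 44 h (log2 difference 4.23, SE 0.60, adjusted p = 6.55e-07). Its log2 difference depends on the added 16, and its within-group deviations did not follow the family.

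Among small subunit genes, Rps6, the substrate of the S6 kinases, Rps27, a zinc finger protein, Rps10, at the mRNA entry channel, and Rps15, in the head, rose the most, by log2 differences of 2.11, 2.03, 2.01 and 1.90. The value of Rps6 rests on 1 probe set: with the mean of its probe sets the difference was 0.83 and not called (adjusted p = 0.0526 in limma). Rps15 read 2239, 1844 and 1976 and 1285, 1082 and 1361 at 20 h and 6036, 5869 and 5962 at 44 h. Its 44 h arrays were all above its 20 h arrays. Rps27 was less even, and the third uninjected 20 h array of the Sall4 experiment read 1440.5 and its replicates 207 and 118. That array also stood high for Rps10 (2699 against 767 and 840) and for Rpl38 (7753 against 2306 and 2683). Rpl38 is studied for its role in Hox mRNA translation. The log2 difference between 3′ and 5′ probe sets of Actb was -1.79 on that array and -0.76 and 0.89 on its replicates. For Gapdh it was 0.86 against 1.86 and 3.82. The part of RNA quality in these values was not tested. Rpl37a and Rpl19, both of the large subunit, completed the 10 largest rises with 1.87 and 1.76.

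Of the members listed by role, Rpl39 and Rps25 were not called over time on the Oct4 and Sall4 arrays, and the others rose. The stalk proteins Rplp0 and Rplp2, which recruit elongation factors, rose by 0.97 and 1.32. Rps3, at the mRNA entry, and Rpsa, both of the small subunit, rose by 1.31 and 1.37. Rpl11, which binds Mdm2 when it is free of the ribosome, rose by 1.14, and Rps19 and Rps24, genes mutated in Diamond-Blackfan anaemia, rose by 1.13 and 1.29. The X-linked Rps4x rose by 1.23. Rpl4 and Rpl22, which lie along or near the exit tunnel, rose by 1.25 and 1.57, and Rpl10a and Rpl38 by 1.32 and 1.09.

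5 members were not called over time in these embryos: Rpl35 (0.30), Rpl37 (-0.02), Rpl39 (1.09), Rps9 (0.24) and Rps25 (-0.63). Rpl35 was bright at both times, with 5301 ± 247 and 6852 ± 1868 at 20 h and 7351 ± 318 at 44 h, and so was Rps9, a protein of the small subunit body. Rpl37 stayed at 11.5 to 21.4 on all 9 of these arrays, near the floor. Rpl39, a small protein lining the exit tunnel, read 48.8, 57.8 and 593 at 44 h, so that 1 array carries its difference. Rps25, which some viral internal ribosome entry sites require, read 451, 410.5 and 75.2 at 44 h against 326, 278 and 397 and 219, 363 and 1206 at 20 h, with groups that overlap. Rpl37, Rpl39, Rps9 and Rps25 were also the 4 members called in none of the 6 comparisons over time. The share of all genes called in none of the 6 was not computed.

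On the Nanog arrays the largest rises in uninjected embryos were those of Rps6 (2.19), Rpl14 (2.00), Rps27 (1.48), Rpl8 (1.27) and Rpl7a (0.96). Rps19 (0.91), Rpsa (0.88), Rpl27a (0.84), Rpl7 (0.82) and Rpl37a (0.78) followed. With the mean of a gene's probe sets Rps6 gave 0.78 (adjusted p = 0.153 in limma) and Rpl27a 0.45 (adjusted p = 0.0766), and Rpsa too lost its call. Leaving out 1 array ended the call of Rpl14 for uninjected replicate 1 or 2 at 20 h or any at 44 h, of Rps27 for replicate 3 at 20 h or 2 at 44 h, of Rpl7 for replicate 1 at 20 h and of Rpl37a for replicate 3 at 20 h or 1 at 44 h. Rpl8 read 2757, 3302 and 3507 at 20 h and 7981, 7894 and 7138 at 44 h (log2 difference 1.27, SE 0.18, adjusted p = 2.23e-06). Across the 41 genes, the order of changes on the Nanog arrays and on the Oct4 and Sall4 arrays had a Spearman rho of 0.80, as a description over genes of 2 sets of arrays that share no sample. The change itself was larger on the Oct4 and Sall4 arrays for 16 members and smaller for 0, by a test of the difference that was added after the data were seen (3% and 3.74% of all genes). The median of that difference was 0.65, against -0.05 for all genes. The 16 were Rpl4, Rpl7, Rpl7a, Rpl8, Rpl11, Rpl19, Rpl22, Rpl37a, Rplp0, Rps2, Rps3, Rps4x, Rps7, Rps10, Rps15 and Rps24. The scale of the arrays moves with the experiment, and its part in this difference was not tested. With quantile normalization within each of the 2 sets of arrays the medians were 1.24 and 0.50. That setting leaves the difference in scale between the sets in place.

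**Figure D2:**
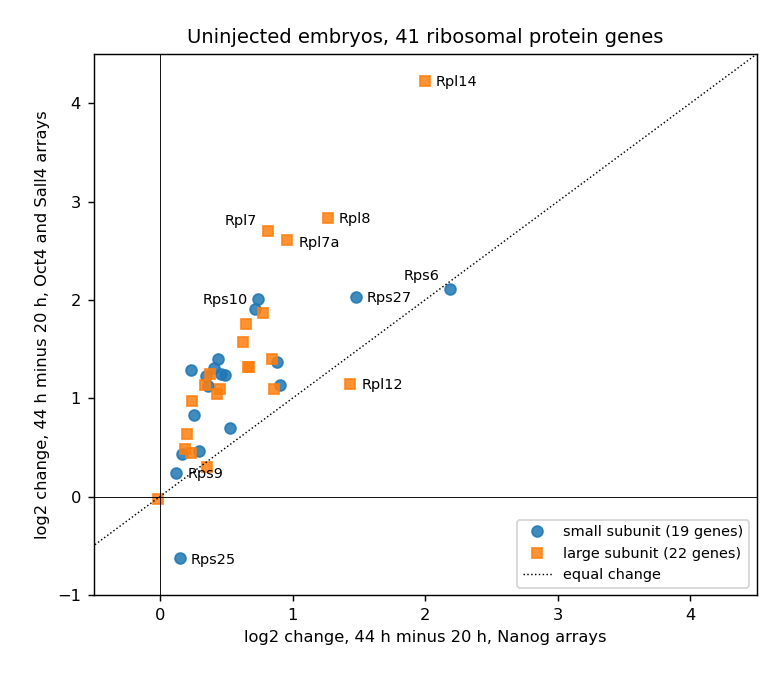
Log2 change from 20 h to 44 h of 41 ribosomal protein genes in uninjected embryos, on the Nanog arrays (horizontal) and on the Oct4 and Sall4 arrays (vertical), with circles for the small and squares for the large subunit and a dotted line of equal change. Most genes lie above the line, with Rpl14 at 2.00 and 4.23, while Rps6 lies close to it at 2.19 and 2.11.

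Members also rose between 20 h and 44 h in injected embryos. Control MO embryos of the Nanog experiment had 11 of 41 members higher (7.17% of all genes) with a median of 0.38, and Nanog MO embryos had 13 higher (8% of all genes) with a median of 0.46. Oct4 MO embryos had 35 of 41 higher (17.4% of all genes) with a median of 1.16, and Sall4 MO embryos 34 (14.5% of all genes) with a median of 1.10. No member fell in these comparisons, in which 16.2%, 11.8%, 21.8% and 21.7% of all genes fell. 8 members rose in all 6 comparisons over time: Rpl7, Rpl8, Rpl14, Rpl27a, Rplp2, Rps15, Rps19 and Rpsa. The share of all genes that rose in all 6 was not computed, so this count cannot be set against it. The test of whether the change in Nanog MO embryos differed from that in control MO embryos called 0 of 41 members (0.827% of all genes), with 1 at an unadjusted p under 0.05. The count in control MO embryos was 7 without 20 h replicate 1, 4 without 20 h replicate 3 and 5 without 44 h replicate 1 or 2, and that in Nanog MO embryos was 6, 8 and 5 without 20 h replicate 1, 44 h replicate 1 and 44 h replicate 3.

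Control MO injection itself changed 0 members by limma. At 44 h on the Oct4 and Sall4 arrays, 0 of 41 passed (0.0969% of all genes) with 1 at an unadjusted p under 0.05, and the median was -0.08 against 0.00 for all genes. There 35 of 41 members were below 0, and in 14 every control MO array was below every uninjected array (6% of all genes). At 44 h on the Nanog arrays, 0 passed (0.349% of all genes), also without adjustment, both medians were -0.09, and 6 members lay below without overlap (14.5% of all genes). At 20 h on the Nanog arrays, 0 passed (0.0905% of all genes), also without adjustment, with a median of 0.04 against -0.02.

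The knockdown comparisons ask whether ribosomal protein transcripts depend on Oct4, Sall4 or Nanog. At 20 h few members passed the test. With the Oct4 MO, set against uninjected embryos, Rps6 rose (1 of 41, 0.174% of all genes), and Rpl37a and Rpl41 fell (2 of 41, 1.84% of all genes). The median was -0.28 against -0.02 for all genes and -0.15 for the brightest 10%, and 14 members had an unadjusted p under 0.05. With the Sall4 MO only Rpl27a passed, and it fell (1 of 41, 0.084% of all genes), with a median of -0.21 against 0.03. With the Nanog MO, against control MO embryos, 0 passed (0.62% of all genes) and 1 had an unadjusted p under 0.05, with a median of -0.19 against -0.02. Leaving out uninjected replicate 1 or 3 or Oct4 MO replicate 2 left 1 call with the Oct4 MO, leaving out Oct4 MO replicate 1 gave 6, and array weights gave 12, of which 11 fell. For the Sall4 MO, leaving out uninjected replicate 1 gave 3 calls, leaving out replicate 2 of either group gave 2, and leaving out uninjected replicate 3 or Sall4 MO replicate 1 or 3 gave 0. The shares of all genes called under these settings are not given, so these counts cannot be set against them.

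Rpl41, the shortest ribosomal protein, read 5061, 4546 and 5050.2 in uninjected embryos and 3560.1, 2470.0 and 3460.1 with the Oct4 MO at 20 h (log2 difference -0.64, SE 0.16, adjusted p = 0.023). The groups did not overlap, but its brightest probe set whose name does not mark probes shared with other transcripts gave a difference of 0.015. Its call was also lost with the mean of its probe sets, with only the arrays of the comparison and without uninjected replicate 1 or 3 or Oct4 MO replicate 2. Rpl37a, a zinc-binding protein, read 2199, 1676 and 2406 and 1561, 797 and 1111 (log2 difference -0.88, SE 0.24, adjusted p = 0.0476), and its call was lost in 13 of 19 alternative settings. Rpl27a read 1861, 1462 and 1723 in uninjected and 910.5, 1156 and 716 in Sall4 MO embryos at 20 h (log2 difference -0.87, SE 0.19, adjusted p = 0.0336). All Sall4 MO arrays were lower. The call was lost without either of uninjected replicates 1 and 3 and without either of Sall4 MO replicates 1 and 3, with only the arrays of the comparison, with array weights and with the mean of all its probe sets (-0.54). No control MO embryos belong to these comparisons of 20 h, so injection and knockdown cannot be told apart there.

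At 44 h, Rpl7a and Rpl27a stood below the control with the Sall4 MO, and Rpl7a, Rpl12 and Rpl8 with the Oct4 MO. With the Oct4 MO 3 of 41 members fell (6.18% of all genes) and 1, Rps6, rose (5.38% of all genes). The median was -0.18 against 0.02 for all genes and -0.04 for the brightest 10%. In 23 members every Oct4 MO array was below every control array (14.6% of all genes), and in 1 above (13.9%). With the Sall4 MO 2 of 41 fell (2.13% of all genes) and 0 rose (1.83%), the median was -0.28 against -0.02, and in 29 members every Sall4 MO array was below every control array (12.6% of all genes). With the Nanog MO 1 of 41 fell (1.56% of all genes), Rps6, and 0 rose (3.44%). Its median was -0.10 against 0.05, and the arrays of 12 members lay below without overlap (9.06% of all genes). The share of members called is near that of all genes, while the medians lie below. The Oct4 and Sall4 comparisons share their control arrays. The Oct4 MO count of 4 was 2 without any 1 control array or Oct4 MO replicate 1 or 3, that of the Sall4 MO was 0 without its replicate 2, and that of the Nanog MO was 0 without control replicate 3 or Nanog MO replicate 1. With the mean of all probe sets of a gene the counts were 7, 4 and 2, given without the shares of all genes under that setting.

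**Figure D3:**
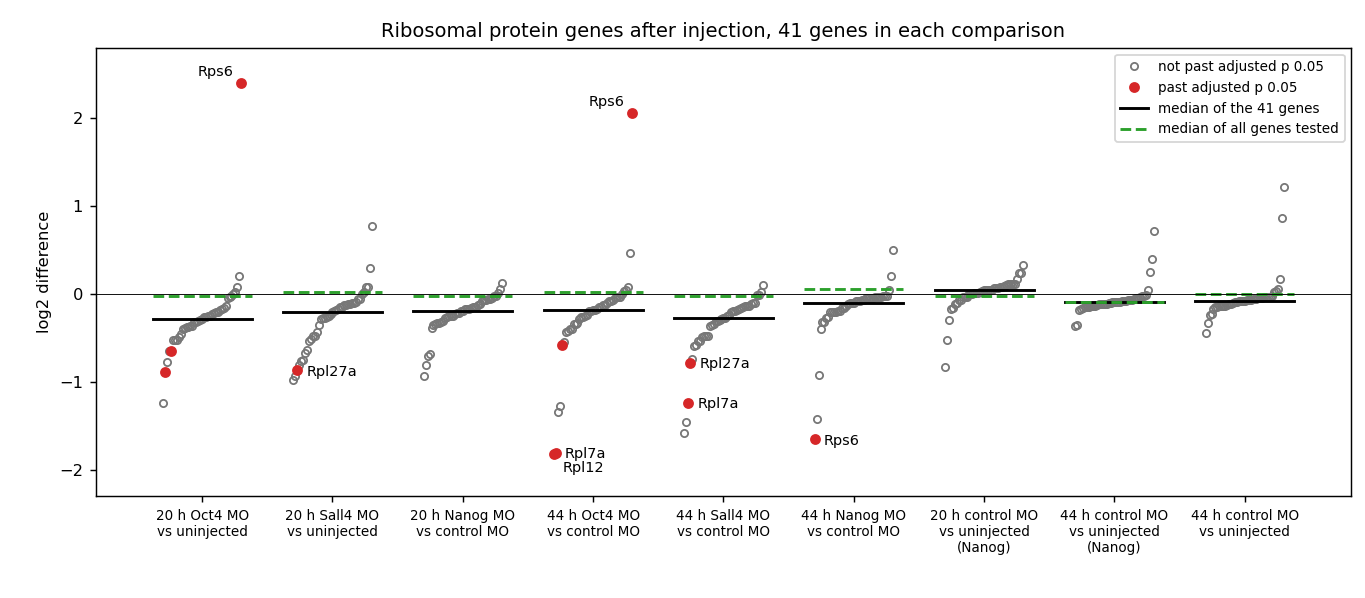
Log2 differences of 41 ribosomal protein genes in 9 comparisons, sorted within each, with filled circles for genes past an adjusted p of 0.05 and lines for the median of the 41 genes (solid) and of all genes tested (dashed). In the 6 comparisons of an Oct4, Sall4 or Nanog MO the solid line lies between -0.28 and -0.10, below the dashed line. In at least 1 of them 7 genes pass, and the share of all genes that do so was not computed.

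Rpl7a, an RNA-binding protein of the large subunit, had the lowest adjusted p of the family after knockdown. At 44 h it read 4514, 4683 and 4430.5 in control MO embryos and 5254, 4763 and 4720.3 in uninjected ones. With the Oct4 MO it read 921, 1604 and 1442 (log2 difference -1.81, SE 0.25, adjusted p = 7.92e-06), and with the Sall4 MO 2276, 1157 and 2682 (log2 difference -1.24, SE 0.25, adjusted p = 0.00286). All 6 arrays were below all control arrays, and the Oct4 MO call was kept in 20 of 20 alternative settings. The Sall4 MO call was lost without Sall4 MO replicate 2 and with the arrays of the comparison alone. At 20 h Rpl7a was not called, with 938 ± 221 in uninjected and 908 ± 165 in Oct4 MO embryos. From 20 h to 44 h Rpl7a changed by 0.51 in Oct4 MO embryos (adjusted p = 0.104 in limma), beside 2.61 in uninjected ones. The difference between these changes was not tested, and the uninjected value also draws on 20 h arrays of the Sall4 experiment. With the Nanog MO it read 6045 ± 779 against 7506 ± 551 in the control (log2 difference -0.32, SE 0.25, adjusted p = 0.602). The difference between the Oct4 and the Nanog MO effects was itself called (log2 difference -1.49, SE 0.35, adjusted p = 0.0177), by a test added after the data were seen, which called 1 of 41 members lower (1.6% of all genes) and 1 higher (0.523%). These MO belong to experiments whose arrays differ in scale, and the part of scale or experiment in this difference was not tested.

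Rpl12, at the base of the stalk, read 483, 491 and 669 in control MO and 81.3, 289.7 and 116 in Oct4 MO embryos at 44 h (log2 difference -1.82, SE 0.55, adjusted p = 0.0276). Uninjected embryos read 268, 409 and 99.4, which overlaps the Oct4 MO arrays, and against them the difference was -0.61 and not called. The call was also lost without any 1 control array, without Oct4 MO replicate 1 or 3 and with the arrays of the comparison alone. This probe set is dim, and the 2 brighter probe sets that name Rpl12 with a copy fell from 3079 to 1117.5 and from 6822 to 4341 (log2 differences of -1.48 and -0.66, both called in a fit of all probe sets). With the Sall4 MO the 2 shared probe sets gave -1.25, called, and -0.43, not called. Rpl8 fell from 3987, 4314 and 3974 to 2243, 3417 and 2687 (log2 difference -0.57, SE 0.18, adjusted p = 0.031), with no overlap, and lost its call without any 1 control array, without Oct4 MO replicate 1 or 3, with quantile normalization and with the arrays of the comparison alone. Rpl27a read 4417, 4413 and 4251 in control MO embryos and 2866, 1893 and 2985 with the Sall4 MO (log2 difference -0.78, SE 0.19, adjusted p = 0.0122). It was the member that fell with this MO at both times, and its 44 h call was lost without Sall4 MO replicate 2, with the arrays of the comparison alone and with the mean of all its probe sets (-0.43). Its probe set shared with a copy gave -0.57 at 44 h and -0.74 at 20 h, neither called.

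Of the members listed by role, Rps6 was called at 44 h and the others were not. For the stalk protein Rplp0 the differences with the Oct4, Sall4 and Nanog MO were -0.06, -0.24 and -0.07, for Rps3 they were -0.10, -0.20 and -0.07, and for Rpl11 they were -0.34, -0.29 and -0.08. Rps19 gave -0.27, -0.16 and -0.21, and the X-linked Rps4x gave -0.13, -0.10 and -0.05. Some larger differences did not pass either. Rpl39 gave -1.34 with the Oct4 MO and -1.58 with the Sall4 MO, Rpl14 gave -1.27 with the Oct4 MO and -1.42 with the Nanog MO, and Rpl12 gave -1.45 with the Sall4 MO. Rpl39 read 167, 151 and 121 in control MO, 49.1, 62.3 and 34.6 in Oct4 MO and 79.8, 50.2 and 8.79 in Sall4 MO embryos. Both groups lay below the control without overlap. In the fit of all probe sets, the 1 that names Rpl39 with a copy gave only -0.12 and -0.15, not called. The 5 that name Rpl14 with a copy gave -0.32 to -0.10 with the Oct4 MO and -0.11 to -0.07 with the Nanog MO, none called.

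**Figure D4:**
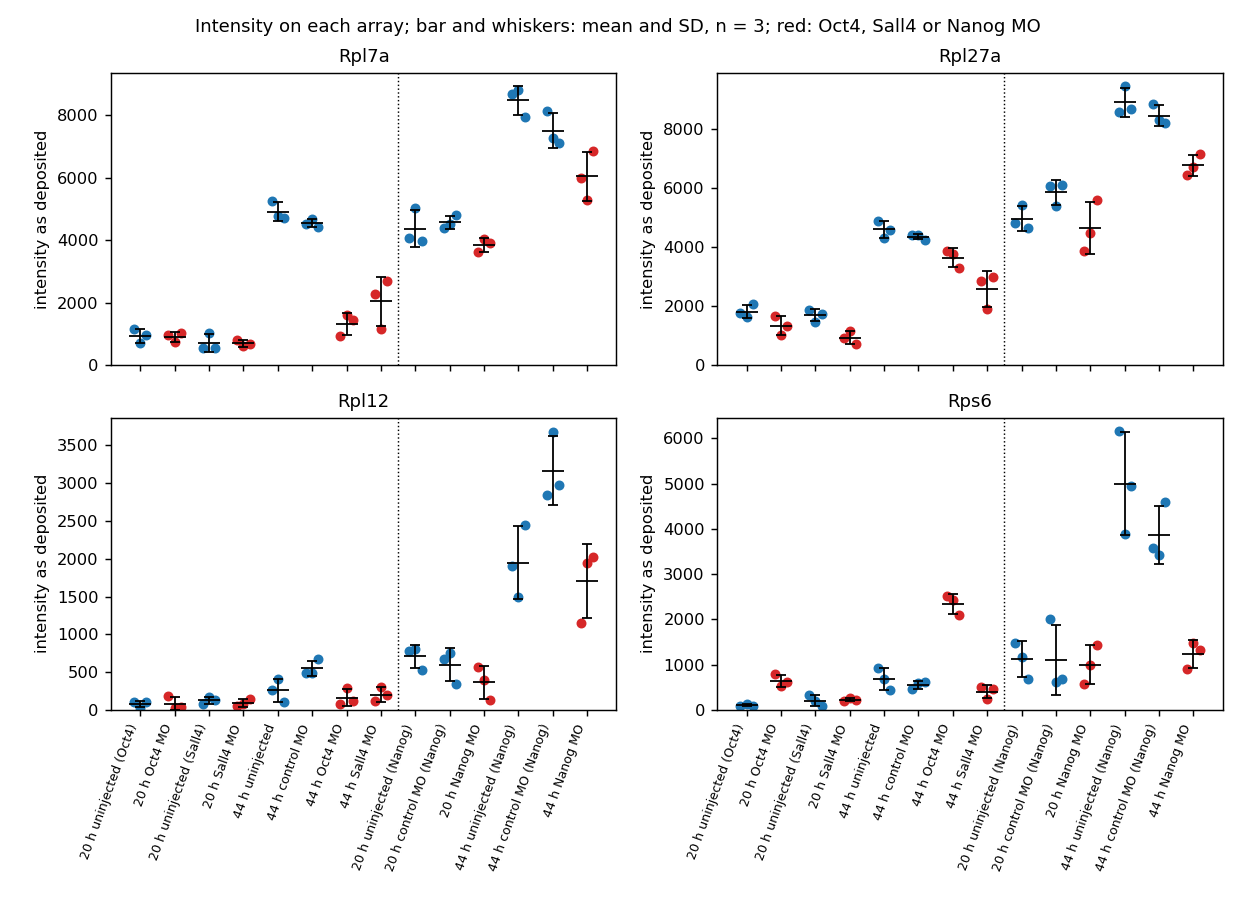
Intensity as deposited of Rpl7a, Rpl27a, Rpl12 and Rps6 on each array of the 14 groups (points), with the mean and SD of n = 3 arrays, red for the Oct4, Sall4 and Nanog MO and blue for other embryos, and a dotted line before the Nanog arrays, whose scale is higher. Rpl7a at 44 h reads 4431 to 4683 in control MO embryos and 921 to 1604 with the Oct4 MO, and Rps6 is highest with the Oct4 MO among the Oct4 and Sall4 arrays and lowest with the Nanog MO among the 44 h Nanog arrays.

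Rps6 rose with the Oct4 MO at both times, on the probe set that stands for it here. At 20 h it read 91.3, 138 and 93.5 in uninjected and 782, 519.8 and 608 in Oct4 MO embryos (log2 difference 2.40, SE 0.41, adjusted p = 0.00065). At 44 h it read 459, 585 and 619.9 in control MO and 2516, 2419 and 2101 in Oct4 MO embryos (log2 difference 2.06, SE 0.41, adjusted p = 0.000921). The groups were apart at both times. The Sall4 MO arrays read 499, 229 and 463, and the direct comparison of the Oct4 with the Sall4 MO at 44 h called Rps6 alone (1 of 41, 3.71% of all genes, log2 difference 2.58, SE 0.41, adjusted p = 0.000117). With the Nanog MO it fell instead, from 3572, 3416 and 4598 to 895, 1479 and 1330.4 (log2 difference -1.65, SE 0.41, adjusted p = 0.0144), a call lost without control replicate 3 and without Nanog MO replicate 1. The difference between the Oct4 and the Nanog MO effects, taken across arrays of different scale, was log2 difference 3.71, SE 0.58, adjusted p = 0.000299 in limma.

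These values come from 1 of 11 probe sets that name Rps6. A second, dimmer probe set of Rps6 alone gave -0.22 with the Oct4 MO at 20 h, 0.32 at 44 h and -0.16 with the Nanog MO at 44 h, none called. The other 9 name Rps6 together with its pseudogene Rps6-ps4. They gave -0.24 to -0.01 with the Oct4 MO at 20 h, -0.57 to 0.01 at 44 h and -0.32 to 0.00 with the Nanog MO, and none was called. The change of Rps6 is therefore one of a single probe set, and the average of the 2 probe sets of Rps6 alone did not pass in any knockdown comparison in which the brighter one did.

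**Figure D5:**
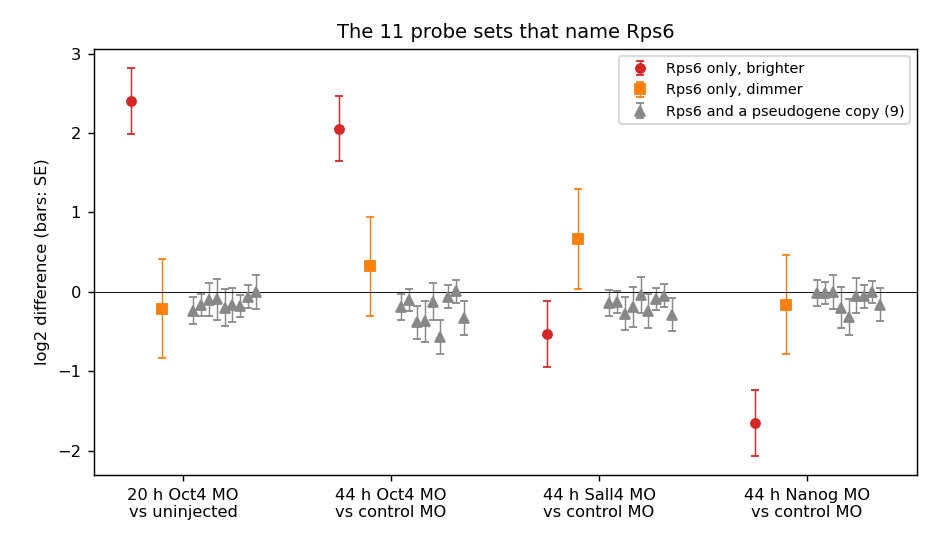
Log2 difference with its SE for the 11 probe sets that name Rps6, in 4 comparisons, with circles for the brighter and squares for the dimmer probe set of Rps6 alone and triangles for the 9 shared with a pseudogene copy. The circle lies at 2.40, 2.06, -0.53 and -1.65 from left to right, while the triangles lie between -0.57 and 0.01.

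Probe sets outside the 41 gave values on the rest of the ribosome. A further 27 ribosomal protein genes are named only on probe sets shared with copies. In uninjected embryos 24 of these 27 rose from 20 h to 44 h on the Oct4 and Sall4 arrays (20.2% of all probe sets rose) with a median of 1.35, and 14 on the Nanog arrays (10.4%) with a median of 0.53. At 44 h, 2 fell with the Oct4 MO (5.94% of all probe sets), 1 with the Sall4 MO (1.83%) and 0 with the Nanog MO (2.39%), with medians of -0.28, -0.32 and -0.11. Over all 110 probe sets that name a ribosomal protein gene with a copy, 92 rose over time on the Oct4 and Sall4 arrays, and 11 fell with the Oct4 MO and 6 with the Sall4 MO at 44 h. These values cannot be assigned to 1 locus, since the probes do not tell gene and copy apart.

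The rise over time was also set beside the longest run of pyrimidines in the start-site window. That run can lie anywhere in the window and need not touch the start site, so it does not mark a TOP motif. On the Oct4 and Sall4 arrays, the 21 members with a run of at least 7 pyrimidines changed over time by a median of 1.25 (-0.63 to 4.23), and the 15 tested members without one by 1.14 (-0.02 to 1.91). This is given without a test. Rps25 and Rpl14 are the lowest and the highest of those with a run, and the run of Rps25 lies wholly before the start site.

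Genes that build or use the ribosome were read from lists chosen with earlier results of these data known. In uninjected embryos on the Oct4 and Sall4 arrays, 51 of 76 mitochondrial ribosomal proteins rose and 2 fell (median 1.47), where 20.4% of all genes rose and 25% fell. On the Nanog arrays 29 rose and 2 fell (0.72), where 9.28% of all genes rose and 16.3% fell. The other lists are given for the Oct4 and Sall4 arrays, with the same shares of all genes. Of 64 ribosome biogenesis factors, 37 rose and 3 fell (0.50), and of 17 RNA polymerase I subunits and factors, 11 rose and 3 fell (0.76). Of 38 translation factors 27 rose and 1 fell (0.80), and of 11 ribosomal protein chaperones and importins 9 rose (0.66). Of 14 growth regulators, 6 rose and 2 fell: Myc rose by 2.73 and Larp1, which binds TOP mRNAs, by 2.25, while Max, the partner of Myc, fell by 1.87 and Mtor by 0.88 on the log2 scale.

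With the Oct4 MO, several translation factors fell. At 44 h, 9 of 38 fell (6.18% of all genes) and 0 rose (5.38%), with a median of -0.23. Eif2s3x, a subunit of the initiation factor that carries the initiator tRNA, differed by -2.82, Eif3b and Eif3e, subunits of eIF3, by -2.82 and -2.74, and the cap-binding Eif4e by -1.61. Eif3e already differed by -2.09 at 20 h, when 7 of 38 fell (1.84% of all genes). Larp1 fell at both times (-1.49 and -1.68). Of the biogenesis factors, 8 of 64 fell at 20 h (1.84% of all genes), such as Utp20 (-1.35) and Dkc1, the pseudouridine synthase (-0.79). At 44 h 4 of 64 fell and 2 rose, which is near or below the shares of all genes (6.18% and 5.38%). Of the 76 mitochondrial ribosomal proteins, 10 fell and 2 rose at 44 h (median -0.33). With the Sall4 MO at 44 h, where 2.13% of all genes fell, 3 of 38 translation factors, 6 of 76 mitochondrial ribosomal proteins and 1 of 64 biogenesis factors fell, and none of these lists had a member that rose. With the Nanog MO 0 translation factors passed at 44 h by limma.

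The targeted genes were read as a check, although an MO need not lower its target's mRNA. Pou5f1 read 3925 ± 456 in control MO and 2218 ± 259.9 in Oct4 MO embryos at 44 h, Sall4 3169 ± 385 and 3662 ± 462 with the Sall4 MO, and Nanog 3828 ± 110.2 and 2687 ± 1129 with the Nanog MO. Pou5f1 and Nanog were lower without overlap (14.6% and 9.06% of all genes), and Sall4 was not. The fall of Pou5f1 was not particular to the Oct4 MO. At 44 h Pou5f1 read 2203 ± 712 with the Sall4 MO. On the Nanog arrays it read 6495 ± 376 in control MO and 4034 ± 665 in Nanog MO embryos. Sall4 read 1585 ± 64.6 with the Oct4 MO. Markers of stage moved with the knockdowns at 44 h. The summed intensity of 8 oocyte and 1-cell markers was 1993 to 2188 in control MO embryos, 2466 to 3206 with the Oct4 MO and 3868 to 4556 with the Sall4 MO, and 9068 to 14908 and 18795 to 23831 in the control and the Nanog MO embryos of the Nanog experiment. Of the 8, 1 rose with the Oct4 MO (5.38% of all genes), 3 with the Sall4 MO (1.83%) and 2 with the Nanog MO (3.44%). Both 2-cell markers measured rose with the Oct4 MO (5.38% of all genes rose), with sums of 1761 to 2291 against 109 to 185. With the Sall4 MO they summed to 192 to 632, and 0 rose (1.83% of all genes). The 9 embryo markers summed to 18153 to 21239 in control MO, 14536 to 16290 with the Oct4 MO and 14367 to 18263 with the Sall4 MO. Of these, 2 fell with the Oct4 MO (6.18% of all genes) and 2 with the Sall4 MO (2.13%). On the Nanog arrays the embryo markers summed to 37943 to 38962 in control MO and 30133 to 34094 in Nanog MO embryos (1 of 9 fell, 1.56% of all genes). There the 2-cell markers summed to 626 to 1052 and 1171 to 4872 (1 of 2 rose, 3.44% of all genes). At 20 h the oocyte sums were 13759 to 14010 in uninjected and 13843 to 15373 in Oct4 MO embryos. The part of these shifts in the lower ribosomal protein medians was not tested. Sums of 10 cumulus and granulosa markers were 168 to 291 with the Oct4 MO, 213 to 251 with the Sall4 MO and 181 to 448 in control MO embryos at 44 h.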

How the data were processed

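Intensity values are those deposited by the authors in 1 table of 45101 probe sets and 42 arrays, on a linear scale, with 46022 values at exactly 1. The authors' steps of summary and normalization are not given in the sources used here. Per the labels' protocols, RNA was isolated with PicoPure, amplified with the WT-Ovation One-Direct system and biotinylated with an FL-Ovation module. Such amplification can make dim transcripts uneven between arrays. Arrays were grouped by their titles into 14 groups of 3. Pearson correlations between replicates were 0.896 to 0.964, and no pair of arrays was a copy.

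The platform annotation gave the gene names: 34945 probe sets carry 1 gene symbol and 932 several. Each gene was read from its single-symbol probe set with the highest mean of log2(intensity + 16), and entered the test when 1 or more group means exceeded the median of the table (an intensity of 71.15). One linear model with a mean per group was fitted to all 42 arrays with limma 3.58.1 in R 4.3.3 (28 residual degrees of freedom), two-sided, with Benjamini-Hochberg adjustment over 15478 genes in each of 17 comparisons. A difference is on the log2(intensity + 16) scale, which understates the change of dim genes. An exact permutation test of 3 arrays against 3 cannot go below p = 0.1. Further tests compared effects between experiments (2) and fitted 1 row per probe set (29373), all added after the data were seen. The fitting code was tested on simulated data. The members and lists were chosen with earlier results of these data known. In each comparison the text names the members called, up to the 10 largest rises and falls, and the members listed by role. Figures were drawn with matplotlib 3.10.9.

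Replicate numbers were checked as pairs by the correlation of deviations from group means. Every pair exceeded 0.1 only for control MO against uninjected embryos at 20 h in the Nanog experiment (0.11 to 0.12), where 0 members were called with the replicate block as without it. Alternatives were the added constant, the filter, quantile, median and trimmed mean scaling, the choice of probe set, the arrays in the fit, array weights, the reference group, the replicate block and leaving out each array.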

Additional observations from a re-analysis of the deposited data

Results flagged for a closer look

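The effect of the Oct4 MO at 44 h differed from that of the Nanog MO, by a test of the difference, for Rpl7a (log2 difference of effects -1.49, SE 0.35, adjusted p = 0.0177) and for Rps6 (3.71, SE 0.58, adjusted p = 0.000299). Rpl7a was below its control on 3 of 3 Oct4 MO arrays and, in the Nanog experiment, not called. Rps6 was above its control on 3 of 3 Oct4 MO arrays and below it on 3 of 3 Nanog MO arrays, and the 9 probe sets that name it with a pseudogene copy did not follow. The Oct4 and Nanog MO belong to experiments whose arrays differ in scale, and the part of this in both differences was not tested.

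The change of uninjected embryos from 20 h to 44 h was larger on the Oct4 and Sall4 arrays than on the Nanog arrays for 16 members and smaller for 0, by the test of the difference. The arrays of the 2 sets differ in scale, and the part of this in the result was not tested.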

How the results depend on the processing

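Of 225 counts under settings other than leaving out an array, 194 stayed within 1.5 times the reported count and 31 did not. Quantile normalization called 2 members with the Sall4 MO at 20 h, and 18 and 22 over time in control MO and Nanog MO embryos. Median centring gave 4 with the Sall4 MO at 20 h and 27 and 24 over time in uninjected and control MO embryos of the Nanog experiment, and trimmed mean scaling gave 3, 26 and 21, with 23 in Nanog MO embryos. The mean of all probe sets of a gene gave 0 for both MO at 20 h, 7, 4 and 2 with the Oct4, Sall4 and Nanog MO at 44 h, 0 for the Oct4 against the Sall4 MO and 19 over time in control MO embryos. Leaving out probe sets marked for shared probes gave 1 with the Oct4 MO at 20 h, 8 and 6 with the Oct4 and Sall4 MO at 44 h and 3 between them, and turned the sign of Rpl41 at 20 h (0.015). The arrays of a comparison alone gave 1 and 0 with the Oct4 and Sall4 MO at 20 h, 0 with the Sall4 and with the Nanog MO at 44 h, 0 between the Oct4 and Sall4 MO and 4 over time in Nanog MO embryos, with fewer arrays in each fit. Array weights gave 12 and 0 with the Oct4 and Sall4 MO at 20 h. Uninjected in place of control MO embryos gave 5 with the Sall4 and 2 with the Nanog MO at 44 h. For the other changes the cause was not tested. Counts under these settings and with 1 array left out are given without the shares of all genes called there. They show how far the number of calls moves and cannot be set against all genes.

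Leaving out 1 array gave 1 to 6 members with the Oct4 MO and 0 to 3 with the Sall4 MO at 20 h, 2 to 4, 0 to 3 and 0 to 1 with the Oct4, Sall4 and Nanog MO at 44 h, and 1 to 2 between Oct4 and Sall4 MO. Over time it gave 12 to 16, 4 to 9 and 5 to 10 in uninjected, control MO and Nanog MO embryos of the Nanog experiment, and 35 to 38, 31 to 37 and 32 to 35 in uninjected, Oct4 MO and Sall4 MO embryos of the others. With the replicate block, counts were 2 with the Oct4 MO at 20 h, 4, 2 and 1 at 44 h, and 17, 12, 35 and 34 over time in uninjected and Nanog MO embryos of the Nanog experiment and in uninjected and Oct4 MO embryos of the others. In no comparison other than the 1 named with the methods did every pair exceed 0.1, a limit that cannot exclude weaker pairing. Control MO against uninjected embryos at 44 h in the Nanog experiment, for example, gave 0.06 to 0.13.

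Member medians were below 0 in every setting of the 6 knockdown comparisons. Of 1405 values of single members in alternative settings, 1272 kept their call and 132 lost it. The low signal of Rpl12, Rpl14, Rpl37 and Rpl39 limits what their probe sets can show, and so does the number of 3 arrays per group.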

Other observations

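Rpl39l, a copy of Rpl39 that the choice of members leaves out, differed between control MO and all other embryos of its experiment at 44 h. On the Oct4 and Sall4 arrays it read 2166.5, 2399.9 and 2533 in uninjected, 481, 552 and 493 in control MO, 1937, 1703 and 1410.1 in Oct4 MO and 1704, 1479 and 1263 in Sall4 MO embryos. On the Nanog arrays at 44 h it read 6121, 7067 and 4669 in uninjected, 1431, 1533 and 1447 in control MO and 4185, 5167 and 5259 in Nanog MO embryos. The control MO arrays were the lowest in both experiments without overlap, so the rises against control MO embryos (1.69 with the Oct4 MO, 1.51 with the Sall4 MO and 1.71 with the Nanog MO) share those arrays. Control MO against uninjected embryos gave -2.18 and -1.99. Rpl39 itself was not called in these comparisons.

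Among other relatives of the family, Rpl7l1, a copy of Rpl7, rose by 2.59 over time in uninjected embryos on the Oct4 and Sall4 arrays, Rpl22l1, a copy of Rpl22, by 1.51, and Fau, which encodes a ubiquitin-like fusion of Rps30, by 1.17. Rps27l, a copy of Rps27, fell by 0.35. Of 4 genes of the p53 axis tested there, Mdm4 and Mdm2, both of which restrain p53, fell (-1.87 and -0.55), where 25% of all genes fell, and the p53 targets Cdkn1a (1.17) and Ccng1 (-0.53) were not called.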
